A study of Mus musculus with 14 samples.

Results

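The small leucine-rich proteoglycans are secreted matrix proteins with a short core built of leucine-rich repeats. The 8 genes described here are decorin (Dcn), lumican (Lum), biglycan (Bgn), fibromodulin (Fmod), osteoglycin (Ogn), asporin (Aspn), PRELP (Prelp) and podocan (Podn), chosen by name from the 54524 Ensembl genes of the count table, and all 8 passed the filter on low counts that left 26626 genes for testing. Their core proteins bind fibrillar collagens and help to set how fibrils form and how thick they grow. Decorin and biglycan also bind TGF-beta and, when released from the matrix, engage receptors of the innate immune system. In liver these proteins are known as products of hepatic stellate cells and portal fibroblasts, and they accumulate in scars.

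Liver sinusoidal endothelial cells (LSECs), the fenestrated endothelium of the liver capillaries, were sorted from male Balb/c mice. The labels give their age as 10 to 12 weeks, while the study's methods give a somewhat older range. The 4 healthy samples came from mice that received no injection, so no group received mineral oil alone. The others were taken 1 day (2 samples), 3 days (4 samples) or 7 days (4 samples) after CCl4, a solvent toxic to hepatocytes, was given once into the peritoneum at 0.5 µL per g of body weight in mineral oil. The labels give the gate as CD32+, F4/80-, UV- and PI-, and the study's methods add CD45-, which would remove immune cells. By the study's account, the UV signal is autofluorescence of stellate cells, so the UV- gate is meant to leave these out. The study kept 2 samples at day 1 because the others had low RNA integrity, and since the labels do not tie each sample to its own animal, p-values measure the spread between these samples. The question was how LSECs change after a single injury, and here how the transcripts of these proteoglycans changed.

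Total counts on genes ran from 46401496 to 103912264 per sample, and 3 counts, the floor below which a gene was taken as not detected, corresponded to 0.0299 to 0.0661 CPM (counting error only, as the libraries were amplified without molecular identifiers). CPM is the count scaled to a library of fixed size, computed with TMM factors. Day 3 replicate 4 stood apart with 22986 genes detected against 27283 to 34768 in the other samples, and healthy replicate 4 had a hepatocyte marker sum of 9514 CPM against a healthy median of 365 CPM. This sum was 218 to 438 CPM in the other healthy samples and 36.3 and 153 CPM at day 1. It was 978 to 3241 CPM at day 3 and 907 to 7201 CPM at day 7. The 15 LSEC markers summed to between 22845 and 27586 CPM in healthy samples and to between 13864 and 19610 CPM after CCl4, and Stab2, a scavenger receptor of LSECs, averaged 1814 ± 164 CPM (SD, n = 4) in healthy cells. With library size alone as the scaling, the share of called genes that were higher was 75.1% in place of 64.2% at day 3 and 86.8% in place of 68.8% at day 7 (75.8% at day 7 with RLE size factors).

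Positions are those of GENCODE vM21 on GRCm38. Dcn (ENSMUSG00000019929; chromosome 10, 97479609 to 97518143, plus strand) and Lum (ENSMUSG00000036446; chromosome 10, 97565128 to 97572703, plus strand) are neighbours, 47.0 kb apart with no coding gene between them. Aspn (ENSMUSG00000021388; chromosome 13, 49544443 to 49567565) and Ogn (ENSMUSG00000021390; chromosome 13, 49608046 to 49624501) lie on the plus strand in a row with Ecm2 and Omd, inside Cenpp on the other strand. Prelp (ENSMUSG00000041577; chromosome 1, 133910304 to 133921414, minus strand) and Fmod (ENSMUSG00000041559; chromosome 1, 134037254 to 134048277, plus strand) are 115.8 kb apart. Bgn (ENSMUSG00000031375) is on X, 73483602 to 73495933, plus strand. Podn (ENSMUSG00000028600) is on chromosome 4, 108014791 to 108096445, minus strand. Whether counting used the strand is not stated, so counts of Prelp, which shares 350 exon bases with the antisense gene Gm15851, and of Aspn, which shares 7 with Cenpp, are uncertain to that extent.

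RefSeq start sites (GRCm38.p6) were found for 6 of the 8 genes, all but Dcn and Lum. The 250 bases before the start are shown for Prelp, Ogn and Bgn, because these 3 genes were both low at day 1 and called higher at day 3 than at day 1. Each is written 5′ to 3′ on the gene's strand. Capitals mark matches on either strand to 5 motifs, which are the TATA box (TATAAA), the CCAAT box (CCAAT), the GC box (GGGCGG), the AP-1 motif (TGANTCA) and the SMAD motif (CAGAC).
Prelp (chr1:133921402-133921651, minus strand): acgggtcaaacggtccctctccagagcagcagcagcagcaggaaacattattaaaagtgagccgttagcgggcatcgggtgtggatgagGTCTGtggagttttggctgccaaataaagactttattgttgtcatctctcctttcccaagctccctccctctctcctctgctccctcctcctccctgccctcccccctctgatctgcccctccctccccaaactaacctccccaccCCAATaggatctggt
Ogn (chr13:49607765-49608014, plus strand): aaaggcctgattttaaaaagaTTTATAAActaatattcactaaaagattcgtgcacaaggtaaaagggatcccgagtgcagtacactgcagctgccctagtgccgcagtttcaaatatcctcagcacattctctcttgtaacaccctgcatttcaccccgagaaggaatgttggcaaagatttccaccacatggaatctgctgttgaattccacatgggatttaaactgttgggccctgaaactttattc
Bgn (chrX:73483351-73483600, plus strand): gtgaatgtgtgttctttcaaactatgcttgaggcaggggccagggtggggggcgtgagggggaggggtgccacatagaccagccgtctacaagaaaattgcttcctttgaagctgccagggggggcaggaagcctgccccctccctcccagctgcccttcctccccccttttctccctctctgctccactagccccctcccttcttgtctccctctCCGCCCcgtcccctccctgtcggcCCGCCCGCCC
The 3 windows held no motif in common. Prelp had CCAAT 11 to 15 bases before its start and the SMAD letters on the reverse strand at 157 to 161 bases. Ogn had TATAAA on both strands, overlapping, between 222 and 229 bases before its start. Bgn had 3 GC boxes on the reverse strand, the last 2 of them overlapping and ending at the start. Among 32851 RefSeq windows of the same length, 33.8% held CCAAT, 42.2% the SMAD letters, 12.4% TATAAA, 32.7% a GC box and 6.75% the AP-1 letters, which none of the 3 windows held. GC content was 55.6% for Prelp, 42.0% for Ogn and 64.4% for Bgn, against a median of 52.4% over all windows. These matches are a description of letters, not of bound sites.

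All 8 proteoglycans had lower levels in both day 1 samples than in every healthy sample, as did 17.9% of all tested genes, and the falls of Prelp and Ogn passed the test. Genes were called at an adjusted p under 0.05 in edgeR's quasi-likelihood test, adjusted over all 26626 genes by the Benjamini-Hochberg method. At day 1 this called 4.06% of all genes, 1.64% lower and 2.42% higher, against 2 of the 8 proteoglycans lower and 0 higher. The median log2 fold change of the 8 was -2.44 against -0.03 over all genes. As these are bulk samples, fewer cells of a type and less RNA per cell cannot be told apart.

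Prelp, a collagen- and heparin-binding member that anchors basement membranes to connective tissue, stood at 124, 120, 162 and 137 CPM in the healthy replicates 1 to 4 and at 13.0 and 10.9 CPM at day 1. The ranges lay far apart. It fell by 3.51 on the log2 scale (SE 0.46, edgeR adjusted p = 0.000841), which is 11.4 times lower, and it was called lower in each of the 23 alternatives tried. At day 3 its levels were 103, 88.0, 70.4 and 158 CPM and at day 7 71.6, 194, 122 and 202 CPM. At day 3, 3 of the 4 samples lay below every healthy sample and the fourth lay within the healthy range, while day 7 spanned that range. Neither differed detectably from healthy cells (log2 fold change -0.37, SE 0.31, edgeR adjusted p = 0.527 at day 3, and 0.12, SE 0.31, adjusted p = 0.862 at day 7).

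Ogn, also called mimecan, a regulator of collagen fibril assembly, was scarce in healthy cells at 3.16, 2.06, 3.36 and 3.08 CPM, and at day 1 it was left with 6 and 14 counts, 0.0718 and 0.154 CPM. It fell by 4.67 on the log2 scale (SE 0.89, edgeR adjusted p = 0.00938), or 25.4 times. The call rests on both day 1 samples: without day 1 replicate 1 the adjusted p was 0.232 and without day 1 replicate 2 it was 0.0664. At day 3 Ogn stood at 3.97, 3.45, 3.25 and 6.79 CPM and at day 7 at 1.10, 10.8, 3.15 and 8.46 CPM. Day 3 overlapped with the healthy samples only at its lower end, while day 7 lay on both sides of them, and neither day passed the test (edgeR adjusted p = 0.585 and 0.304).

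The other 6 genes were low at day 1 without passing the test. Bgn, a chondroitin or dermatan sulfate proteoglycan, went from 173, 172, 193 and 164 CPM to 74.5 and 57.8 CPM (log2 fold change -1.41, SE 0.44, edgeR adjusted p = 0.0967). Fmod, a keratan sulfate member that acts on collagen cross-linking, went from 2.60, 1.94, 3.44 and 3.72 CPM to 0.191 and 0.330 CPM (log2 fold change -3.48, SE 1.21, adjusted p = 0.136). Podn, a distant member of the family, had 197 counts over the healthy samples and 2 counts over the day 1 samples, a ratio of 46.6 per counted read. The exact counting interval was 12.7 to 387 (95%), which leaves out the spread between samples and is too narrow for a difference between groups. The edgeR adjusted p of Podn was 0.104. Dcn at 74.3 and 71.4 CPM, Lum at 9.05 and 5.95 CPM and Aspn at 0.0718 and 0.209 CPM had smaller differences (log2 fold changes -0.95, -1.16 and -1.28, SE 0.72, 0.71 and 0.65, adjusted p = 0.561, 0.450 and 0.335). DESeq2 called 5 of the 8 lower at day 1, and a model of only the healthy and day 1 samples also called 5. Over all genes these called 2745 and 2327 in either direction, against 1080 in the main fit.

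**Figure D1:**
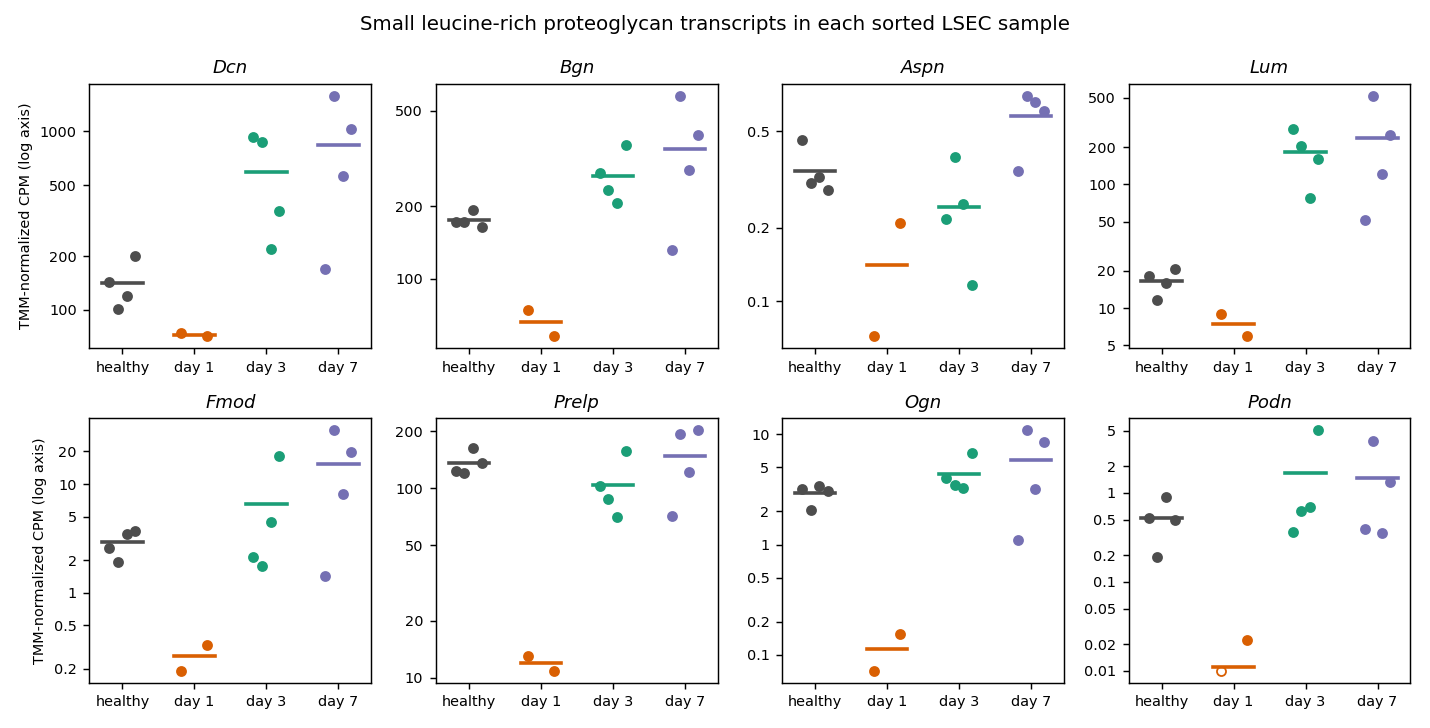
TMM-normalized CPM (log axis, a separate range in each panel) of the 8 proteoglycan genes in each sample of the 4 groups. Points are samples, lines are group means, and the open point drawn at 0.01 CPM is the day 1 sample with 0 counts of Podn. Both day 1 samples sit below all 4 healthy samples in every panel, and only Dcn, Lum and Bgn have all day 3 samples above the healthy ones.

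Other cell types' markers moved at day 1 as well. The 11 monocyte and neutrophil markers summed to 4555 and 8699 CPM at day 1 against 546 to 1484 CPM in healthy samples, with 6 of them called higher and 0 lower, among them Csf3r, the receptor for granulocyte colony-stimulating factor (6.35 ± 3.91 to 101 ± 28.4 CPM, log2 fold change 3.99, SE 0.75, edgeR adjusted p = 0.00858). The 10 portal fibroblast markers summed to 30.6 and 38.4 CPM against 49.1 to 77.6 CPM, with 0 called by edgeR, 4 at an unadjusted p under 0.05, 2 called by DESeq2 and 3 by limma-voom. The 15 stellate markers summed to 291 and 381 CPM against 199 to 303 CPM. One of them, Hgf, the growth factor of hepatocytes, was called (28.4 ± 3.73 to 199 ± 78.1 CPM, log2 fold change 2.80, SE 0.37, adjusted p = 0.000931), and 12 of the 15 had log2 fold changes below 0, with a median of -0.61. Another, Ecm1, averaged 151 CPM in healthy samples and 109 CPM at day 1, and the paper lists it among genes enriched in healthy human LSECs. All 10 hepatocyte markers had log2 fold changes below 0 at day 1 (median -5.26), where healthy replicate 4 raised the healthy mean. Of 9 mesothelial markers, 8 were below 0 (median -1.57). Their sum was higher all the same, 40.9 and 53.2 CPM at day 1 against 24.6 to 34.3 CPM in healthy samples. The remaining marker, Slpi, averaged 8.15 CPM in healthy samples and 43.1 CPM at day 1. The part of any of these cells in the lower proteoglycan levels was not tested.

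Dcn and Lum rose at days 3 and 7, by 4.2 and 10.8 times at day 3 and by 5.93 and 14.1 times at day 7. At day 3 the test called 2 of the 8 proteoglycans higher and 0 lower, against 4.62% of all genes higher, 2.58% lower and 7.19% in either direction. Dcn, Lum and Bgn had all day 3 samples above all healthy samples, 3 of 8 against 7.53% of all genes. At day 7 it called the same pair higher and 0 lower, against 2.19% higher, 0.992% lower and 3.18% in either direction over all genes, and only Lum had no overlap with healthy cells (8.72% of all genes were higher in every sample). The median log2 fold change of the 8 was 0.90 at day 3 and 1.26 at day 7 (0.18 and 0.02 over all genes). The comparisons at the 3 days share the 4 healthy samples.

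Lum, a keratan sulfate proteoglycan that spaces collagen fibrils, stood at 18.1, 11.7, 16.1 and 20.9 CPM in healthy cells. It reached 282, 204, 78.1 and 161 CPM at day 3 (log2 fold change 3.44, SE 0.60, edgeR adjusted p = 0.00603, 10.8 times) and 51.3, 521, 121 and 249 CPM at day 7 (3.81, SE 0.61, adjusted p = 0.00779, 14.1 times). The lowest injured sample at these times was above the highest healthy one. Both calls held in all 23 alternatives.

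Dcn, the dermatan sulfate proteoglycan best known for binding TGF-beta, stood at 143, 101, 119 and 200 CPM in healthy cells. At day 3 it was at 924, 869, 218 and 357 CPM (log2 fold change 2.07, SE 0.58, edgeR adjusted p = 0.0482, 4.2 times). At day 7 it was at 169, 1583, 561 and 1028 CPM (log2 fold change 2.57, SE 0.59, adjusted p = 0.0367, 5.93 times), where replicate 1 lay within the healthy range. The day 3 call was close to the threshold and held in 11 of the 23 alternatives, with adjusted p from 0.00187 to 0.128. It was lost without any 1 of the 4 healthy samples, either day 1 sample, day 3 replicates 1 or 2, or day 7 replicates 3 or 4. The day 7 call held in 16 of 23 and was lost without healthy replicates 1, 2 or 3 or day 7 replicates 2, 3 or 4 (adjusted p from 0.0524 to 0.124 without these). With the replicate number as a block the adjusted p of Dcn was 0.098 at day 3 and 0.0716 at day 7.

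**Figure D2:**
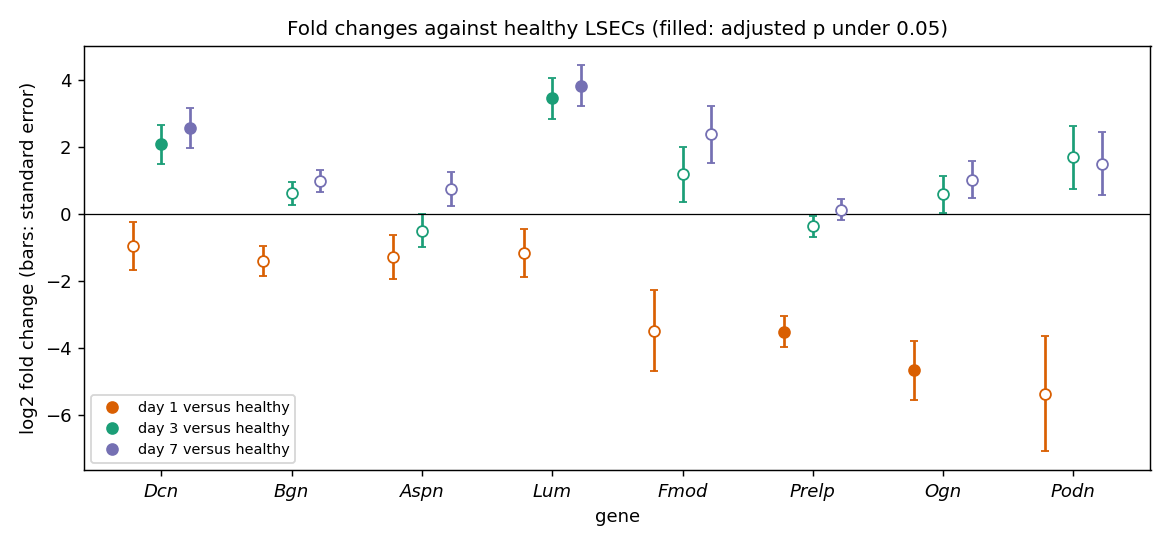
Log2 fold changes against healthy LSECs from edgeR for the 8 proteoglycans at day 1, day 3 and day 7, with bars of 1 standard error and filled points for adjusted p under 0.05. Every day 1 value is below 0, Prelp (-3.51) and Ogn (-4.67) are filled at day 1, and Dcn and Lum are filled at days 3 and 7.

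Many markers of hepatic stellate cells, known sources of Dcn and Lum, were also higher at days 3 and 7. So were the collagens and some myofibroblast markers described below. Of 15 stellate markers, 9 were called higher at day 3 and 11 at day 7, with 0 lower at either time and median log2 fold changes of 2.49 and 3.01. Lrat, the acyltransferase that forms retinyl esters in these cells, went from 1.53 to 9.28 CPM in healthy samples to a range of 24.7 to 61.9 CPM at day 3 and of 10.1 to 125 CPM at day 7 (log2 fold changes 3.41 and 3.74, SE 0.73 and 0.74, edgeR adjusted p = 0.0147 and 0.0188). The summed stellate markers of replicates 1 to 4 were 594, 558, 343 and 525 CPM at day 3 and 276, 1104, 525 and 888 CPM at day 7. Within each of these groups of 4, the samples stood in the same order for this sum, for Dcn and for Lum, an order noticed after the values were seen. At day 7, though not at day 3, the portal fibroblast, myofibroblast and fibril collagen sums stood in that order too. At day 3, replicates 1 and 2 were also the highest for other cell types. The monocyte and neutrophil markers of replicates 1 to 4 summed to 13041, 8182, 1527 and 1408 CPM, and the mesothelial markers to 184, 113, 17.2 and 2.93 CPM. The portal fibroblast and fibril collagen sums were highest in replicate 4 there. Of the 15 stellate markers Ecm1 had the highest mean at both times, 131 and 176 CPM, and it stood at 151 CPM in healthy cells. The paper lists Ecm1 and Reln among genes enriched in LSECs of healthy human livers, so the sum does not measure stellate cells alone. In healthy samples 14 or 15 of the 15 were detected. The UV- gate is meant to remove stellate cells, and their part in the rise of Dcn and Lum was not tested.

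Bgn was above healthy cells in all day 3 samples, at 275, 233, 207 and 358 CPM, but the difference was small beside the spread (log2 fold change 0.61, SE 0.34, edgeR adjusted p = 0.312). At day 7 it stood at 132, 577, 282 and 396 CPM (0.98, SE 0.34, adjusted p = 0.122), with replicate 1 below the healthy samples.

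Fmod stood at 2.15, 1.75, 4.50 and 18.1 CPM at day 3 (log2 fold change 1.18, SE 0.81, edgeR adjusted p = 0.439). The mean was carried by replicate 4, without which the log2 fold change was -0.13. At day 7 it was at 1.43, 31.1, 8.09 and 19.9 CPM, 3 samples above and 1 below the healthy range (2.37, SE 0.84, adjusted p = 0.132). DESeq2 called Fmod at day 7 beside Dcn and Lum, and limma-voom with sample quality weights called 4 proteoglycans there, Dcn, Lum, Bgn and Fmod. Both tools also called more genes over all genes at day 7, 2602 with DESeq2 and 7047 with limma-voom against 846 with edgeR.

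Podn was at 0.519, 0.188, 0.895 and 0.492 CPM in healthy cells, at 0.363, 0.629, 0.688 and 5.03 CPM at day 3 and at 0.395, 3.85, 0.353 and 1.33 CPM at day 7. Day 3 replicate 4 again lay apart, and without it the log2 fold change at day 3 went from 1.68 (SE 0.95, edgeR adjusted p = 0.333) to 0.02. Aspn, a member without glycosaminoglycan chains, was at 0.459, 0.305, 0.322 and 0.286 CPM in healthy cells, 0.218, 0.391, 0.251 and 0.117 CPM at day 3 and 0.343, 0.699, 0.661 and 0.602 CPM at day 7. These are 11 to 53 counts per sample, and neither time passed the test (adjusted p = 0.614 and 0.412).

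From day 1 to day 3 the levels of 7 of the 8 genes moved up without overlap between the groups (11.4% of all genes did), and 4 were called higher, against 1.57% of all genes. Ogn rose by 5.25 on the log2 scale (SE 0.91, edgeR adjusted p = 0.0109), Lum by 4.59 (SE 0.87, adjusted p = 0.0156), Prelp by 3.13 (SE 0.45, adjusted p = 0.00362) and Bgn by 2.02 (SE 0.45, adjusted p = 0.0323). Dcn (3.02), Fmod (4.66) and Podn (7.04) had adjusted p of 0.0689, 0.0787 and 0.0572, and Aspn, whose samples overlapped, had a log2 fold change of 0.78 (adjusted p = 0.610). With either day 1 replicate 1 or day 1 replicate 2 left out, 0 of the 8 were called in this comparison, and Bgn was called in 14 of 23 alternatives. Between day 3 and day 7, 0 of the 8 were called by edgeR and 0 by DESeq2, 1 by limma-voom (Fmod), and 1 had an unadjusted p under 0.05, with log2 fold changes from -0.18 to 1.24 and 1.77% of all genes called.

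For each of the 8 genes the spread between samples was wider at day 7 than in healthy cells. The highest sample was 1.17 to 4.76 times the lowest among healthy cells over the 8 genes. At day 7 it was 9.35 times for Dcn, 10.2 times for Lum, 21.7 times for Fmod, 9.81 times for Ogn, 10.9 times for Podn, 4.39 times for Bgn, 2.83 times for Prelp and 2.04 times for Aspn. Day 7 replicate 1 was lowest for 7 of the 8 genes (Podn was lowest in replicate 3), and replicate 2 was highest for 7 (Prelp was highest in replicate 4). At day 3, replicate 3 was lowest for 5 genes, Dcn, Lum, Bgn, Ogn and Prelp, and replicate 4 was highest for 5, Bgn, Fmod, Ogn, Prelp and Podn.

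Levels of different genes were compared as CPM per kilobase of merged exons. Merged exons take in every annotated transcript and came to 5838 bases for Dcn, 6099 for Bgn, 3615 for Prelp and 2448 for Lum. The order depends on these lengths: in plain CPM, Bgn (176) and Dcn (141) averaged above Prelp (136) in healthy cells. In healthy cells Prelp led at 37.6 ± 5.32 CPM per kb (SD, n = 4), above Bgn at 28.8 ± 1.98 in every sample, and Dcn followed at 24.1 ± 7.36 with a range that overlapped that of Bgn. Lum was at 6.83 ± 1.58 CPM per kb, apart from its neighbours in the order, Ogn at 1.14 and Fmod at 0.885 overlapped, and Aspn at 0.146 and Podn at 0.123 overlapped. At day 1 the order began with Dcn at 12.5 ± 0.346 (n = 2), Bgn at 10.8 ± 1.94, Prelp at 3.30 and Lum at 3.07 CPM per kb, the last pair overlapping, and the other 4 were at 0.0789 or lower. At day 3 it was Dcn at 101 ± 61.1, Lum at 74.0 ± 34.7, Bgn at 44.0 ± 10.8 and Prelp at 29.0 ± 10.4 (n = 4), each overlapping with the next. At day 7 it was Dcn at 143 ± 104, Lum at 96.2 ± 84.7, Bgn at 56.8 ± 30.8 and Prelp at 40.8 ± 17.2 (n = 4), again each overlapping with the next. Fmod and Ogn came next at both times, at 2.00 and 1.70 and then at 4.58 and 2.29 CPM per kb, and Podn and Aspn were lowest, at 0.393 and 0.104 and then at 0.347 and 0.245.

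As shares of the summed CPM per kb of the 8 genes, which depend on the same exon lengths, Prelp had the highest mean in healthy cells and Dcn in each injured group. Prelp held 37.8% ± 3.63 (SD, n = 4) in healthy cells, and after CCl4 its share was 11.1% ± 0.113 (n = 2), 12.5% ± 5.15 (n = 4) and 14.6% ± 5.40 (n = 4) at days 1, 3 and 7. Its lowest healthy share, 34.4%, was above its highest share after CCl4, 21.4%. A share also depends on the levels of the other genes. Prelp itself averaged 136 CPM in healthy cells and 11.9, 105 and 148 CPM at days 1, 3 and 7, and it was called lower at day 1 only. Lum held 6.81% ± 1.06 in healthy cells, 10.2% ± 1.81 at day 1, 28.5% ± 3.20 at day 3 and 25.5% ± 5.15 at day 7. Dcn held 24.0% ± 5.43, 42.0% ± 3.76, 37.7% ± 11.9 and 39.6% ± 5.49 at the same points, and Bgn 29.2% ± 3.60, 36.2% ± 2.24, 19.4% ± 7.53 and 18.5% ± 4.00.

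The neighbouring genes Lum and Dcn did not move in one proportion. The ratio of Lum to Dcn in CPM per kb ran from 0.25 to 0.323 in healthy samples and was 0.199 and 0.291 at day 1, but ran from 0.559 to 1.08 at day 3 and from 0.513 to 0.785 at day 7. The ratio of Prelp to Lum lay between 4.43 and 6.93 in healthy samples and between 0.247 and 1.24 in all injured samples. These ratios were not tested, as they are made of the same values as the fold changes.

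**Figure D3:**
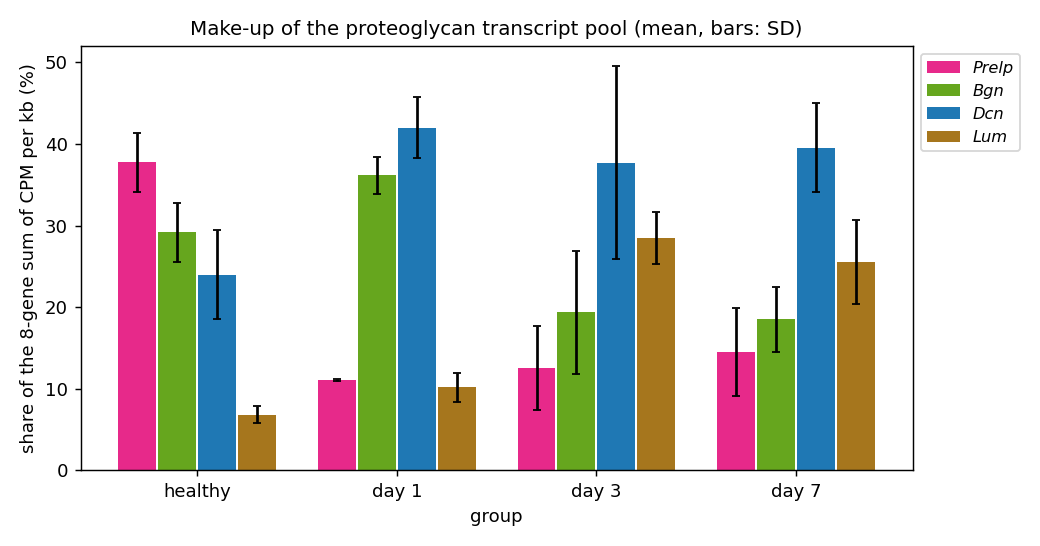
Share (%) of the summed CPM per kb of the 8 proteoglycan genes held by Prelp, Bgn, Dcn and Lum in each group (healthy, day 3 and day 7 n = 4, day 1 n = 2). Bars are means and error bars are SD. Prelp is the tallest bar in healthy cells at 37.8% and Dcn is the tallest in the other groups, while Lum goes from 6.81% to 28.5% at day 3.

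The 8 genes were not equally alike over the 14 samples. Pearson's r of log2 CPM was 0.963 for Dcn with Lum and 0.951 for Ogn with Prelp. Bgn had r = 0.932 with Fmod, 0.931 with Ogn and 0.872 with Lum. Lum with Prelp had r = 0.589, and the lowest value was 0.43 for Lum with Aspn. The points share their libraries and the 4 groups, so these values describe the samples and carry no test.

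**Figure D4:**
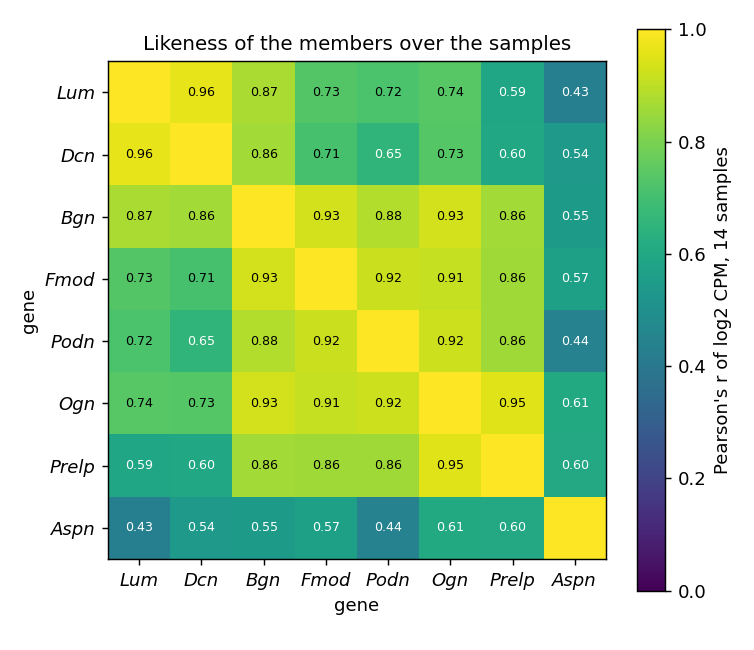
Pearson's r of log2 CPM over the 14 samples for each pair of the 8 proteoglycan genes, on a colour scale from 0 to 1 with the value printed in each cell. Dcn and Lum form a pair (0.96), Bgn, Fmod, Podn, Ogn and Prelp lie between 0.86 and 0.95 with each other, and Aspn stays at 0.61 or lower with every other gene.

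Among 15615 tested genes with a mean of at least 1 CPM, the genes most like each member in log2 CPM over the 14 samples were the following. Dcn went with Rgs5 (r = 0.978), a regulator of G protein signalling found in pericytes and 1 of the 15 stellate markers, and with Ms4a4d (0.976) and Pde3a (0.964). Lum went with Tbx20 (0.983), Bicc1 (0.982) and Pde3a (0.981). Bgn went with Lgi2 (0.973), Shroom3 (0.972) and Ltbp1 (0.97), a latent TGF-beta binding protein. Prelp went with Htra1 (0.966), a secreted serine protease, with Ogn (0.951) and with Lama3 (0.949), a laminin chain, and Ogn with Prelp (0.951), Evc (0.948) and Angptl2 (0.934). Fmod went with Mamdc2 (0.949), Thbs2 (0.948) and Usp11 (0.941), Podn with Mxra7 (0.928), Ogn (0.923) and Fmod (0.918), and Aspn with Tpcn1 (0.913), Fndc5 (0.906) and Ago1 (0.904).

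Of the 9 other genes of the family, 7 were tested, and 2 were called lower at day 1, 1 at day 3 and 0 at day 7 (edgeR; 1 at an unadjusted p under 0.05, 0 by DESeq2 and 1 by limma-voom), with 0 called higher. The medians of the 7 log2 fold changes were -0.35, -0.14 and 0.26. Ecm2 and Omd, the neighbours of Aspn and Ogn on chromosome 13, were the genes called. Ecm2, a collagen-interacting matrix protein, was at 12.9 ± 1.32 CPM (SD, n = 4) in healthy cells and fell to 1.97 ± 0.727 CPM (n = 2) at day 1 (log2 fold change -2.71, SE 0.36, edgeR adjusted p = 0.000894). It was at 5.75 ± 1.75 CPM (n = 4) at day 3 (-1.17, SE 0.26, adjusted p = 0.016) and at 9.88 ± 1.36 CPM at day 7. Omd, osteomodulin, fell from 0.349 ± 0.256 to 0.0345 ± 0.00202 CPM at day 1 (-3.29, SE 0.71, adjusted p = 0.0184). In this row of 4 genes, Ecm2, Omd and Ogn were thus called lower at day 1 and Aspn was not. Kera and Epyc, which follow Lum on chromosome 10, did not pass the filter, and Kera was at 0 counts in all but 1 day 3 sample.

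Of 28 tested enzymes that build the glycosaminoglycan chains of these proteins, 3 were called higher and 1 lower at day 1, 2 higher and 2 lower at day 3, and 2 higher and 0 lower at day 7, with medians of -0.09, 0.08 and -0.20 on the log2 scale. Over all genes 4.06%, 7.19% and 3.18% were called in either direction at days 1, 3 and 7, and the counts of the proteases and receptors are to be read beside the same shares. Xylt1, the xylosyltransferase that starts the chain on the core protein, rose from 1.74 ± 0.946 CPM (SD, n = 4) to 17.9 ± 5.46 (n = 2) at day 1, 16.6 ± 5.16 at day 3 and 9.77 ± 1.24 at day 7 (n = 4). Its log2 fold changes were 3.36, 3.25 and 2.48 (SE 0.43, 0.40 and 0.38, edgeR adjusted p = 0.000828, 0.00125 and 0.00698). Chst11, which sulfates chondroitin at the carbon-4 position, rose from 0.242 ± 0.172 CPM to 2.23 ± 0.715, 1.75 ± 0.965 and 1.40 ± 0.209 CPM (log2 fold changes 3.20, 2.85 and 2.53, adjusted p = 0.01, 0.00909 and 0.0272). B3galt6, a galactosyltransferase of the linker, rose at day 1 (1.21, SE 0.22, adjusted p = 0.00804). Chst7 fell at day 1 (-1.65, SE 0.41, adjusted p = 0.0383), and Csgalnact1 and Chst15 fell at day 3 (-0.87 and -0.78, SE 0.22 and 0.20, adjusted p = 0.031 and 0.0301).

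Of 10 proteases known to cut small proteoglycans or related matrix, 8 were tested, and 2 were called higher and 1 lower at day 1, 2 higher at day 3 and 3 higher at day 7, with median log2 fold changes of 0.22, 1.11 and 2.00. Adamts4 and Adamts5, the aggrecanases, were the genes higher at every time. Adamts4 went from 30.4 ± 9.90 CPM (SD, n = 4) to 341 ± 88.1 CPM (n = 2) at day 1 and Adamts5 from 2.86 ± 0.377 to 43.4 ± 5.58 CPM (log2 fold changes 3.49 and 3.93, SE 0.58 and 0.62, edgeR adjusted p = 0.00419 and 0.00303). At day 3 their log2 fold changes were 2.45 and 2.98 and at day 7 2.36 and 3.15, all called. Htra1, the gene most like Prelp, fell from 14.7 ± 1.82 to 1.50 ± 0.145 CPM at day 1 (-3.29, SE 0.44, adjusted p = 0.000948). Mmp2, a gelatinase, rose at day 7 from 2.55 ± 0.386 to 35.2 ± 29.6 CPM (3.79, SE 0.69, adjusted p = 0.0134).

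Of 16 receptors and ligands of these proteins, 3 were called higher and 1 lower at days 1 and 3, and 3 higher and 0 lower at day 7, with medians of 0.69, 0.59 and 0.71 on the log2 scale. Cd14, the co-receptor through which soluble biglycan signals, rose from 120 ± 37.2 CPM (SD, n = 4) to 651 ± 330 (n = 2), 452 ± 237 and 355 ± 36.4 CPM (n = 4) at days 1, 3 and 7 (log2 fold changes 2.43, 1.91 and 1.56, edgeR adjusted p = 0.00511, 0.00817 and 0.0358). Cd44 rose at all 3 times (2.27, 2.18 and 1.81, adjusted p = 0.013, 0.00763 and 0.0294), and Lrp1, an endocytic receptor of decorin, at days 3 and 7 (2.72 and 2.68, adjusted p = 0.011 and 0.0207). Cd14 and Cd44 are also made by myeloid cells, which the F4/80- and CD45- gates are meant to remove. Of the 11 monocyte and neutrophil markers, 6, 4 and 1 were called higher at days 1, 3 and 7, and the part of those cells was not tested. Kdr, a receptor for vascular endothelial growth factor that decorin binds, fell at day 1 (-1.71, SE 0.35, adjusted p = 0.0131), Itgb1 rose at day 1 (0.84, adjusted p = 0.0229) and P2rx4 fell at day 3 (-0.66, adjusted p = 0.0278). The TGF-beta ligands Tgfb1, Tgfb2 and Tgfb3 and the receptors Tlr2 and Tlr4 did not pass the test at any time, the nearest being Tgfb3 at day 7 (1.88, SE 0.56, adjusted p = 0.082).

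**Figure D5:**
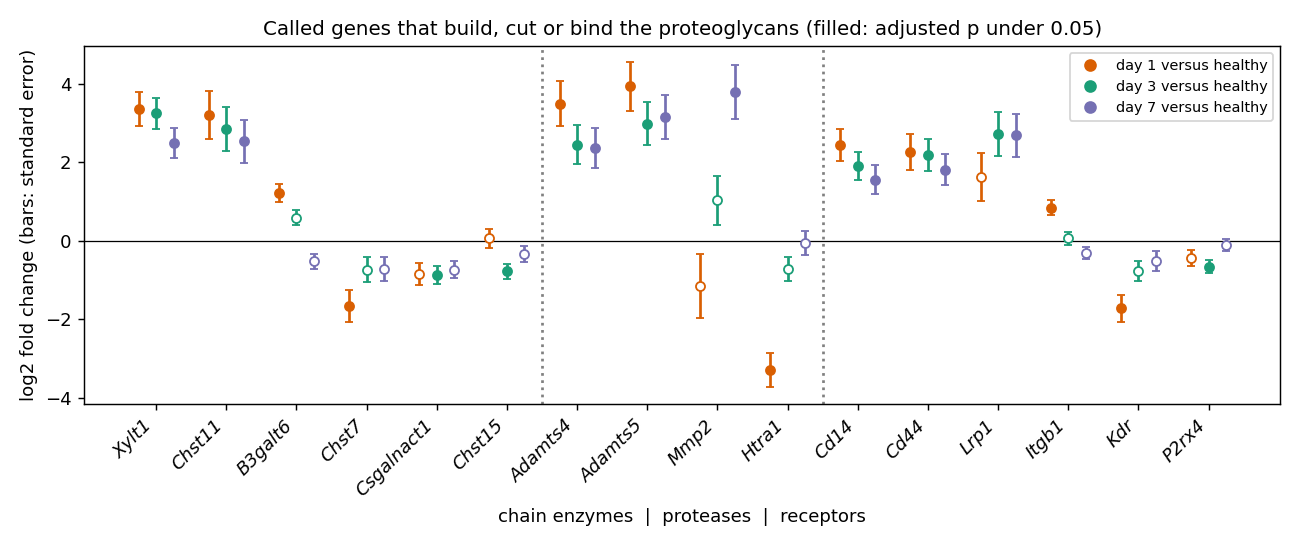
Log2 fold changes against healthy LSECs (bars: 1 standard error) for the genes called at any time among the chain enzymes, proteases and receptors, with filled points for an edgeR adjusted p under 0.05. Xylt1, Chst11, Adamts4, Adamts5, Cd14 and Cd44 are filled and above 0 at all 3 times, and Htra1 is filled at day 1 only, at -3.29.

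Of 14 collagens of fibrils and their surface, the proteins that the proteoglycans bind, 10 rose at day 3 and the same 10 at day 7. At day 1, 0 of 14 were called by edgeR (4 at an unadjusted p under 0.05, 1 by DESeq2 and 0 by limma-voom), and 13 of the 14 log2 fold changes were below 0, with a median of -1.15. At days 3 and 7, 0 were called lower, and the medians were 2.94 and 4.82. Col1a2 went from 8.37 ± 1.58 CPM (SD, n = 4) to 247 ± 242 at day 3 and 591 ± 742 at day 7 (n = 4; log2 fold changes 4.88 and 6.14, SE 0.91 and 0.97, edgeR adjusted p = 0.00764 and 0.00752). Col6a3 went from 1.74 ± 0.498 to 49.7 ± 28.4 and 77.8 ± 87.6 CPM (4.84 and 5.48, SE 0.78 and 0.80, adjusted p = 0.00382 and 0.00514), and Col14a1, a collagen that associates with fibrils and binds decorin, from 6.96 ± 1.43 to 55.6 ± 24.7 and 104 ± 77.9 CPM (3.00 and 3.90, SE 0.58 and 0.61, adjusted p = 0.00906 and 0.00707).

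Of the remaining markers, 4 of 9 for myofibroblasts and smooth muscle were called higher at day 3 and 2 at day 7, led by Acta2, smooth muscle actin (6.88 ± 1.92 to 72.0 ± 22.2 CPM at day 3, log2 fold change 3.39, SE 0.58, edgeR adjusted p = 0.00528), with 0 at day 1 by edgeR, DESeq2 and limma-voom and 0 at an unadjusted p under 0.05. Their sum was 17.4 to 26.1 CPM in healthy samples, 98.2 to 219 CPM at day 3 and 16.3 to 182 CPM at day 7. Of 10 portal fibroblast markers, 2 were called higher at day 3 (Pi16 and Cd34) and 1 at day 7 (Mfap4), and their sums for replicates 1 to 4 were 99.2, 87.4, 144 and 224 CPM at day 3 and 92.8, 220, 113 and 163 CPM at day 7. In both groups the samples stood in the same order for this sum and for Fmod, which was noticed after the values were seen. The day 7 order was shared by the stellate and myofibroblast marker sums and by the sum of the fibril collagens. Of the 10 genes Cd34 had the highest mean, at 82.2 CPM at day 3 and 61.7 CPM at day 7. The paper lists Cd34 among genes of damaged LSECs or endothelial cells, so the sum does not measure fibroblasts alone. The part of portal fibroblasts in the level of Fmod was not tested. Of 9 mesothelial markers, Wt1 was called higher at days 3 and 7, and 0 were called at day 1 by edgeR (2 at an unadjusted p under 0.05, 2 by DESeq2 and 2 by limma-voom). Of 15 LSEC markers, 2 were higher and 4 lower at day 1, 1 higher and 5 lower at day 3 and 1 lower at day 7. Of 11 monocyte and neutrophil markers, 4 were higher at day 3 and 1 at day 7. The lists for Kupffer cells (8 genes), lymphocytes (9) and cholangiocytes (6 of 7 tested) had 0 called by edgeR at each time, with 0 to 3 of a list at an unadjusted p under 0.05 and 0 or 1 by DESeq2 or limma-voom. Of 10 hepatocyte markers, Hpd was lower at day 1 (9 by DESeq2 and 0 by limma-voom), and at days 3 and 7 edgeR called 0, with 0 at an unadjusted p under 0.05, 0 by DESeq2 and 0 and 6 by limma-voom.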

How the data were processed

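RNA of 14 sorted LSEC samples was made into full-length libraries (SMART-Seq v4), mapped with STAR to GRCm38.p6 and assembled with StringTie. The authors deposited whole-number counts per Ensembl gene without normalization. The annotation release, the use of strand and how counts were taken from the assembly are not given in the sources used here. GENCODE vM21 named 54495 of 54524 genes and gave positions and exon lengths.

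Counts were analysed in R 4.3.3 with edgeR 4.0.16 (filterByExpr, minimum count 10 and total 15, TMM, quasi-likelihood F test, 1 model of the 4 group means, Benjamini-Hochberg over 26626 genes, threshold 0.05). A standard error is the absolute log2 fold change over the square root of F. Log2 CPM used a prior count of 2. Samples were grouped by their labels. The scripts were tested on simulated data.

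Named were all 8 proteoglycans, up to 5 genes per list with the lowest adjusted p, defining markers, and the 3 genes most like each proteoglycan. The proteoglycans and lists were chosen with earlier results of these data known. Other genes named by a count of 5 or fewer were named after their values were seen. Alternatives were DESeq2 1.42.0, limma-voom 3.58.1, RLE and library size scaling, other filters, models of 2 groups, the replicate number as a block, leaving out each sample, and leaving out healthy replicate 4 with day 3 replicate 4, the last chosen after seeing the data.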

Additional observations from a re-analysis of the deposited data

Results flagged for a closer look

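In the 4 samples of day 3, Fmod stood at 18.1 CPM in replicate 4 and at 4.50 CPM or lower in the others, and Podn at 5.03 CPM in replicate 4 and at 0.688 CPM or lower in the others. Both gaps exceeded Dixon's 95% critical value for 4 samples, the 2 flags among 24 pairs of a gene and a group of 4. Chance would flag about 1 in 20 if CPM values were normally distributed, which was not tested. The 2 flags are not separate events, as they fall on 1 library and Fmod and Podn had r = 0.918 over the 14 samples. The same library had the fewest genes detected (22986) and the highest portal fibroblast marker sum of day 3 (224 CPM, with the endothelial gene Cd34 included).

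The changes against healthy cells at day 1 and at day 3 differed for 4 genes in edgeR's quasi-likelihood test of day 3 against day 1, by 4.59 on the log2 scale for Lum, 2.02 for Bgn, 5.25 for Ogn and 3.13 for Prelp. All 4 day 3 samples were above both day 1 samples for each of these genes.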

How the results depend on the processing

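Of 905 values of single proteoglycans under the alternatives, 830 kept their direction and their side of the threshold, 36 lost a call, 23 gained a call, and 16 that were not called changed sign, 10 of them in day 7 against day 3 (6 for Podn), with 0 calls of the opposite sign. At day 1, where 2 of the 8 genes were called lower, DESeq2 called 5, a model of the 2 groups 5, and a filter of at least 10 counts in every sample 1 of the 5 genes it kept, and leaving out single samples gave 1 to 3. At day 3, with 2 called, no filter on low counts gave 1, the replicate block 1 and leaving out single samples 1 to 2. At day 7, with 2 called, limma-voom with sample quality weights gave 4, the replicate block 1 and leaving out single samples 1 to 3. Between day 3 and day 1, with 4 called, DESeq2 gave 7 and leaving out single samples 0 to 6, the 0 coming without either day 1 sample, where the lone sample is assumed to vary like the other groups. Between day 7 and day 3, limma-voom with sample quality weights called 1 and leaving out single samples gave 0 to 0. The cause was not tested, except that a left-out sample lowers the number of samples.

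The count of called genes over all genes was 1080, 1915 and 846 at days 1, 3 and 7 with edgeR, 2745, 3633 and 2602 with DESeq2, and 4308, 7265 and 7047 with limma-voom. The model of the 2 groups called 2327 at day 1. Between day 3 and day 1 the count was 676 with edgeR and 2314 with DESeq2. Between day 7 and day 3 it was 472 with edgeR and 6002 with limma-voom. Leaving out healthy replicate 4 and day 3 replicate 4 together kept Prelp and Ogn called at day 1 and Dcn and Lum at days 3 and 7. No pairing by replicate number was seen: deviations of same-numbered samples had r from -0.232 to 0.0962 over 18 pairs, and 0 of 14 samples correlated best with their own number. With so few samples in a group, these values cannot show whether samples shared a batch of isolation or sequencing. With the replicate block, edgeR called 594 genes at day 1, 1385 at day 3 and 435 at day 7, Dcn lost its calls and Bgn its call between day 3 and day 1 (adjusted p = 0.0921). At the lowest levels, Ogn, Aspn, Podn and Fmod at day 1 rested on 30 counts or fewer per sample.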
